A study of Mus musculus with 12 samples.

Results

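In mouse liver, 250 microRNA genes that passed a signal threshold were examined on 12 whole-transcript arrays; 43.0% of the array's negative control probe sets passed it too. They were selected on a measured value: a probe set (the group of array probes that reads 1 transcript) had to carry 1 gene symbol starting with Mir and a digit or with Mirlet7, and its mean over all 12 arrays had to lie above 4.55, the median of the row means of all 72688 probe sets. Of 599 microRNA genes with such a probe set, 250 (41.7%) passed and 349 did not, and for a gene with several probe sets the brightest was used. The level of a member is therefore a matter of choice and not a finding. Of the 250 members, 241 lay above the threshold in each of the 3 group means and 220 did so on every array. The other 9 passed only through the groups in which they were higher, so their differences between groups are tied to the rule and are given as a description: Mir128-1, Mir7042, Mir1927, Mirlet7b, Mir449a, Mir3090, Mir6976, Mir1952 and Mir669c.

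Liver RNA came from male C57BL/6 mice aged 12 weeks, with 4 arrays in each of 3 groups. Control males had lean parents, F2 males had an obese Avy/a grandmother, and F3 males descended from such a female 1 generation further back. Avy/a animals carry the viable yellow allele of agouti, which makes them obese. The labels do not give the agouti genotype of the males themselves, nor the generation to which each control belonged. Whether replicates are different mice is not stated, so the tests reflect only the variation among these arrays, some of which may be technical. The tissue label was checked on marker genes: all 8 hepatocyte markers measured lay between 9.82 and 13.31, with albumin (Alb) the highest, whereas the muscle, adipose and pancreas markers that passed the threshold lay between 4.72 and 6.42. No marker gene tested had F2 or F3 values that were free of overlap with control.

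MicroRNAs are short RNAs cut from hairpin precursors, first in the nucleus by Drosha and its partner Dgcr8 and then in the cytoplasm by Dicer. An Argonaute protein holds the mature strand, whose seed (bases 2 to 8) pairs with target messenger RNAs and lowers their translation or stability. In liver, Mir122 makes up a large share of the mature pool and acts on cholesterol metabolism, and several others (Mir33, Mir34a, Mir107, the let-7 family) are known from lipid and glucose metabolism. A whole-transcript array labels total RNA, so a probe set can read primary transcripts and precursors of a locus. It gives no separate measure of the mature strand, and signals of different probe sets are not comparable as amounts of RNA.

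The mature sequences below are those of members named in the results, from RefSeq on the build GRCm38.p6. They are written 5′ to 3′ with the seed in capitals, and the array did not measure these strands separately. The first 7 belong to members whose groups separated or whose unadjusted p-value was low in a comparison between groups.
miR-494-3p: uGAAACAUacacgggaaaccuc
miR-215-5p: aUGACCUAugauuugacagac
miR-5123: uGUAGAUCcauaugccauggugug
miR-3074-2-3p: uGUUUCAGcucaguaggcac
miR-1969: aAGAUGGAgacuuuaacaugggu
miR-128-3p: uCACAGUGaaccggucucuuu
miR-27a-3p: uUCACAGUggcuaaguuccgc

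The gene of miR-494-3p gives this strand at chr12:109715367-109715388 (plus strand), in the imprinted Dlk1-Dio3 region. miR-215-5p lies at chr1:185313610-185313630 (plus strand), less than 10000 bases from Mir194-1. miR-5123 lies at chr4:40850057-40850080 (minus strand), inside the span of B4galt1. The strand of Mir3074-2 at chr8:84208839-84208858 (minus strand) is antisense to Mir24-2, whose 5p strand lies at chr8:84208839-84208860 (plus strand), and Mir27a lies beside them with its 3p strand at chr8:84208727-84208747 (plus strand). Reads of Mir3074-2 and Mir24-2 cannot be told apart unless the probes keep strands separate, which is not given in the sources used here. miR-1969 lies at chr8:70925541-70925563 (plus strand) and miR-128-3p at chr1:128202404-128202424 (plus strand), inside R3hdm1.

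The second set shows members that share a seed or whose mature sequence occurs at several places, and 2 of the 5 with the widest spread.
let-7a-5p: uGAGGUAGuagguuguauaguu
let-7b-5p: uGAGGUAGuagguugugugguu
let-7d-5p: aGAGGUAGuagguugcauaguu
let-7e-5p: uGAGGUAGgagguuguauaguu
miR-680: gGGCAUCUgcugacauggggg
miR-3470b: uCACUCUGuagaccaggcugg
miR-3473a: uGGAGAGAuggcucagca
miR-3471: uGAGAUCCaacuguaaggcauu
miR-101c: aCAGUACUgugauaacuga
miR-107-3p: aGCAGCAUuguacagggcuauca

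RefSeq sequences were matched for 198 of the 250 members. The 4 let-7 members share the seed GAGGUAG and differ only in later bases or in base 1. The 3 members Mir680-1, Mir680-2 and Mir680-3 give the same mature sequence from loci on chromosomes 6, X and 12. Mir34b, Mir449a and Mir449c also share a seed (GGCAGUG). RefSeq places miR-3470b at chr16:44013885-44013905 (plus strand), miR-3473a at chrX:162874920-162874937 (minus strand), miR-3471 at chr4:10845585-10845606 (minus strand), miR-101c at chr9:3038680-3038698 (minus strand) and miR-107-3p at chr19:34820700-34820722 (minus strand), inside Pank1.

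The brightest members were mostly microRNA genes that are little known in liver, and many were read by probe sets placed on another chromosome. The 10 highest means were those of Mir3470b (12.76), Mir3473a (12.45), Mir1954 (12.25), Mir6240 (12.08), Mir669e (11.92), Mir669h (11.87), Mir466f-1 (11.39), Mir3473f (11.24), Mir3471-1 (10.94) and Mir1191 (10.80). The probe set identifiers carry a chromosome, which matched that of the RefSeq gene for 99.8% of 13426 protein-coding genes tested. It matched for 223 members, differed for 19, was missing for 7, and 1 member (Mir446q) was not in the RefSeq table used. Of the 20 brightest members, 10 were read by a probe set on another chromosome than their RefSeq gene and 8 on the same chromosome. The probe set of Mir3470b, for example, carries chromosome 7 while the gene lies on chromosome 16. The median level was 10.18 over the 19 members and 5.74 over the 223.

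Some hairpins, bright and dim, hold sequence that recurs in promoters. A run of 20 bases of the hairpin, on either strand, occurred in at least 10 of 32851 RefSeq promoter windows of 300 bases for 7 members. These were Mir3473f (93 windows), Mir3473a (17), Mir1954 (23) and Mir3471-1 (12), all among the 10 brightest, and Mir466k (89), Mir3473b (35) and Mir1934 (23), which lay between 5.41 and 6.37. The bright Mir6240 had 0 such windows and Mir1191 had 1. No such run occurred in any window for 149 of the 175 members with a hairpin sequence. The whole mature sequence of miR-3470b occurred in 10 windows (0.0304%), that of miR-3473a in 9 (0.0274%) and that of miR-3471 in 11 (0.0335%). The 3 members of the Mir467a group (Mir467a-3, Mir467a-6 and Mir467a-10) held identical values on all arrays and count as 1 measurement, which leaves 248 distinct sets of values.

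**Figure D1:**
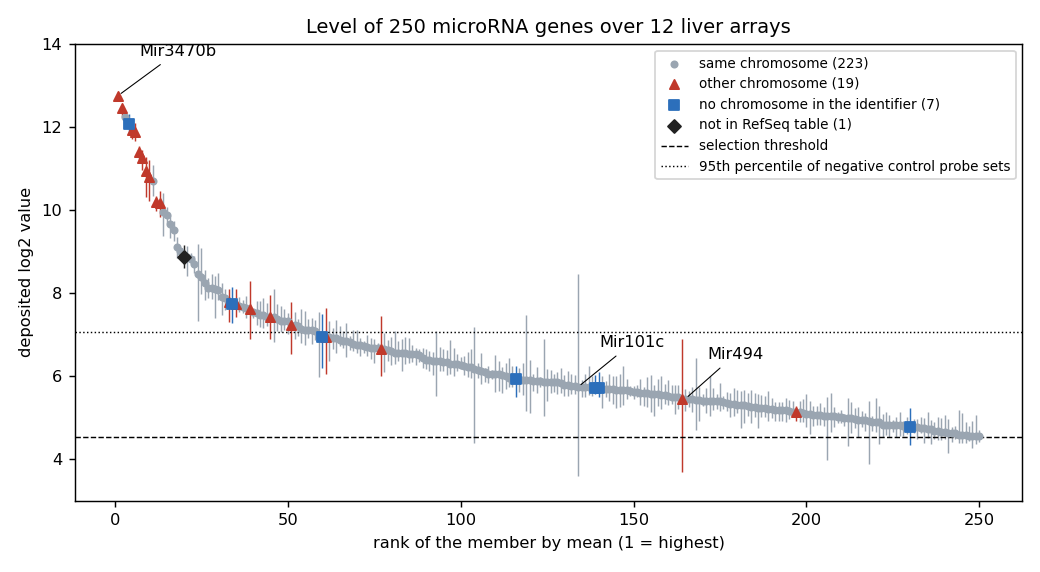
Mean deposited log2 value of each of the 250 members (y axis) against its rank (x axis), with a bar from the lowest to the highest of the 12 arrays and symbols for whether the chromosome in the probe set identifier matches that of the RefSeq gene. The members read on another chromosome gather at the left: they make up 10 of the 20 brightest, and the right end runs down to the threshold of 4.55.

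Most members lay at a modest level. Their median was 5.86, against 6.23 over the 18725 genes tested, and 138 of 250 lay under 6. The 95th percentile of 5222 negative control probe sets was 7.05, and 58 members (23.2%) lay above it, compared with 31.0% of all genes tested. The array also carries background probe sets named by their number of G and C bases, whose mean ran from 1.36 at 3 bases to 7.56 at 23 bases. All 175 members with a hairpin sequence lay above the background read at the G and C content of the hairpin, taking a probe as 25 bases long. For 155 of them that background is under the selection threshold, so the rule fixed the outcome. For the other 20, the hairpins richest in G and C, it is not, and among these Mir762 (6.92, background 6.66) and Mir760 (5.37, background 4.95) lay closest to it. Members just inside the threshold were Mir6976 (4.57), Mir1952 (4.56) and Mir669c (4.55). Just outside lay Mir219a-2 (4.54), Mir6351 (4.53) and Mir1191b (4.47).

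**Figure D2:**
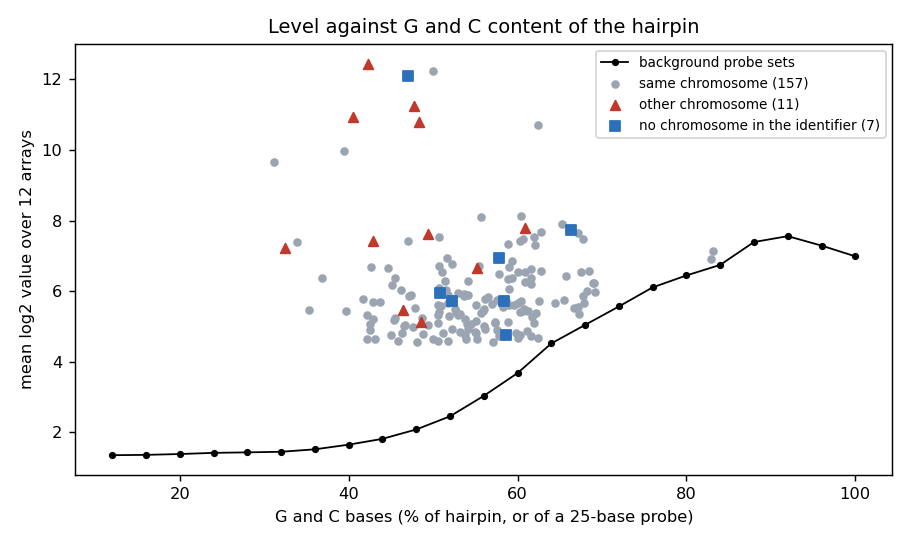
Mean log2 value over 12 arrays (y axis) against the share of G and C bases (x axis) for the 175 members with a hairpin sequence and, as a line, for the background probe sets. The selection threshold of 4.55 itself lies above the line for 155 of the 175. Among members read on another chromosome, Mir3473a stands at 12.45 where the background lies at 1.75.

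MicroRNAs known from liver passed the threshold in part. Of a list of 55 genes, 17 were members, 21 lay under the threshold, and 17 were read only by probe sets with several symbols. The 17 members came from 38 listed genes with a 1-symbol probe set. Over all 599 microRNA genes with such a probe set 41.7% passed. So did 43.0% of the negative control probe sets, so passing alone does not show expression. Mir192 (4.47), Mir30a (3.58), Mir26a-1 (2.91), Mir148a (2.14) and Mir29a (1.99) were among those under the threshold. Of the members, Mir1948 was the brightest at 8.47, followed by Mir194-2 at 8.13 and Mir455 at 6.83, and Mir122 had a mean of 5.91. Mir1948 and Mir194-2 lay above the 95th percentile of the negative control probe sets (7.05), whereas Mir455 and Mir122 lay under it. Of 14 let-7 family genes, 4 were members: Mirlet7d at 6.65, Mirlet7a-1 at 4.89, Mirlet7e at 4.68 and Mirlet7b at 4.59. Of 52 genes on a list of microRNAs known from metabolism, 13 were members, led by Mir483 (6.33), Mir181d (6.29), Mir212 (5.96), Mir107 (5.87) and Mir378a (5.85). Mir33 (2.43) and Mir34a (3.64) lay under the threshold. None of the 15 genes of the Mir17-92 and related clusters was a member: 6 lay under the threshold and 9 shared their probe sets with other symbols. Of 53 microRNAs typical of other cells or tissues, 4 were members, namely Mir375, Mir150, Mir143 and Mir128-1.

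No microRNA gene passed the test in any comparison. In limma fitted to all 12 arrays, with Benjamini-Hochberg adjustment over 18725 genes, 0 of 250 members and 0 of 18725 genes (0%) had an adjusted p under 0.05 for F2 minus control, for F3 minus control, for F3 minus F2 or for all descendants minus control. The smallest adjusted p of a member was 0.9999, 0.9998, 0.9999 and 0.9998 in that order, so every difference named here is a value that did not pass. At an unadjusted p under 0.05, 6 members differed in F2, all higher (2 of which, Mir1192 and Mir703, had overlapping groups), against 0.919% of all genes. In F3 there were 12, with 9 higher and 3 lower, against 2.93% of all genes, and between F3 and F2 there were 2 against 2.37%. Mir6976 is among the 3 lower in F3, and Mir128-1 is the lower member between F3 and F2. Both passed the selection rule only through the groups in which they were higher, so these counts are partly tied to it. Single arrays moved these counts. Without control replicate 2 there were 14 in F2 (3.06% of all genes) and 33 in F3 (6.46% of all genes). Between F3 and F2 there were 12 without F3 replicate 4 (3.65% of all genes). There were 4 without F2 replicate 3 (1.78% of all genes) and 1 without F3 replicate 3 (1.7%). Without F2 replicate 2 there were 10 in F2 (1.51% of all genes). Without F2 replicate 1 or 3 there were 3 (0.929% of all genes) and 2 (0.849%). The mean level of the members was 6.35 ± 0.066 (SD, n = 4) in controls, 6.34 ± 0.027 in F2 and 6.37 ± 0.080 in F3.

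The members' differences centred on 0. The median was -0.018 in F2 (108 members higher, 142 lower) and 0.0071 in F3 (131 higher, 119 lower), compared with medians of -0.010 over all genes in either comparison. Differences were bounded within 1.5-fold either way by their 95% interval for 230 of 250 members (92.0%) in F2 and for 222 (88.8%) in F3. Over all genes tested these shares were 95.2% and 94.1%. Differences beyond 0.3 in either direction were seen for 9 members in F2 (1.38% of all genes) and for 10 in F3 (2.32% of all genes). Both comparisons use the same 4 control arrays, so a member high or low in controls moves them together.

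**Figure D3:**
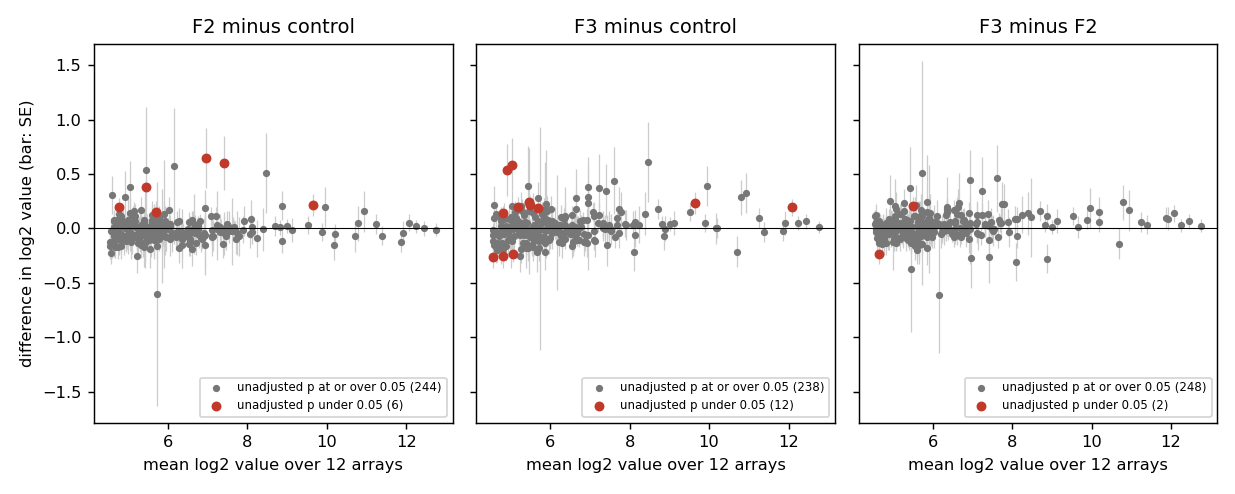
Difference in log2 value between groups (y axis, bars are the standard error) against the mean over 12 arrays (x axis) for the 250 members, in 3 comparisons. Red points have an unadjusted p under 0.05: 6 members in F2 minus control, 12 in F3 minus control and 2 in F3 minus F2, none of them past the adjusted threshold.

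Mir494, of the Dlk1-Dio3 cluster, had the lowest p-value of the members in F2. Its log2 values were 5.24, 5.16, 5.19 and 5.40 in the controls, 5.68, 5.68, 5.60 and 5.54 in F2, and 5.46, 5.56, 5.32 and 5.64 in F3. All 4 F2 arrays lay above all 4 control arrays, whereas 1 F3 array lay within the control range. The difference was 0.38 (SE 0.079, 95% interval 0.21 to 0.55) in F2 and 0.25 (SE 0.079, 95% interval 0.07 to 0.42) in F3. F2 replicates without overlap and higher than control were counted for 4 members, against 0.304% of all genes, and lower for 1, against 0.401%.

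Mir215, which belongs to the p53-regulated group with Mir192 and Mir194, was separated from control in F2 and in F3, 2 comparisons that share the 4 control arrays. Its values were 5.57, 5.63, 5.64 and 5.49 in the controls, 5.75, 5.70, 5.79 and 5.67 in F2, and 5.75, 5.89, 5.78 and 5.66 in F3. The steps were small: 0.15 (SE 0.062, 95% interval 0.01 to 0.28) in F2 and 0.19 (SE 0.062, 95% interval 0.05 to 0.33) in F3. Its neighbour Mir194-1 stood at 5.44 ± 0.19 (SD, n = 4) in controls, 5.38 ± 0.26 in F2 and 5.41 ± 0.18 in F3.

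The other 2 members higher in F2 without overlap were Mir5123 and Mir3074-2. Mir5123 read 7.29, 7.37, 6.92 and 6.82 in the controls, 8.11, 7.46, 7.42 and 7.83 in F2, and 7.76, 8.05, 7.02 and 6.95 in F3. Its difference in F2 was 0.60 (SE 0.245, 95% interval 0.07 to 1.14), and the F3 arrays fell into 2 near the highest F2 value and 2 within the control range. Mir3074-2 read 4.75, 4.4999, 4.65 and 4.76 in the controls and 4.85, 4.96, 4.89 and 4.77 in F2, a difference of 0.20 (SE 0.082, 95% interval 0.02 to 0.38). Its F3 values of 4.65, 4.88, 4.68 and 4.91 overlapped both. Mir24-2, on the opposite strand of the same locus, differed by -0.14 in F2 (SE 0.127, 95% interval -0.41 to 0.14).

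Mir1192 had the largest difference of any member in F2, at 0.65 (SE 0.279), with groups that overlapped. It read 7.34, 6.53, 6.63 and 5.97 in the controls, 7.22, 6.90, 7.46 and 7.48 in F2, and 7.14, 7.55, 6.39 and 6.90 in F3. A single control array, replicate 1, lay among the F2 values. Without control replicate 4, the lowest array, the F2 difference was 0.43.

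The member lower in F2 without overlap was Mir669c, whose F2 mean of 4.48 lies under the threshold, so that it is a member only through control and F3. It read 4.58, 4.58, 4.55 and 4.70 in the controls, 4.52, 4.41, 4.52 and 4.46 in F2, and 4.60, 4.69, 4.58 and 4.47 in F3. The difference was -0.12 (SE 0.061, 95% interval -0.26 to 0.01). None of the lower members in F2 had an unadjusted p under 0.05; beside Mir669c, the lowest belonged to Mir6976 (-0.22), Mirlet7e (-0.17), Mir679 (-0.26) and Mir138-2 (-0.17), all with overlapping groups. Without control replicate 3 the difference of Mir138-2 shrank to -0.081 and that of Mirlet7e to -0.097. Without F2 replicate 3 that of Mir679 shrank to -0.13 and that of Mir6976 to -0.15.

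In F3, non-overlapping groups were seen for 1 member higher (Mir215), against 0.726% of all genes, and 1 lower (Mir1969), against 0.903%. Mir1969 read 5.20, 5.22, 5.01 and 5.29 in the controls, 4.9952, 5.23, 5.03 and 5.07 in F2, and 4.80, 4.99, 4.9991 and 5.01 in F3. The F3 arrays reached from 4.80 to just under the lowest control, and the difference was -0.23 (SE 0.078, 95% interval -0.40 to -0.06). Mir27a, which lies in the Mir23a cluster and is known for its action on lipid genes, read 4.94, 5.02, 4.89 and 4.92 in the controls and 5.0047, 4.64, 4.55 and 4.54 in F3. Its F3 groups overlapped through replicate 1 alone, and the difference was -0.26 (SE 0.107, 95% interval -0.49 to -0.02).

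Among the remaining members of low p-value in F3, Mir5103 differed by 0.22 (SE 0.077, 95% interval 0.05 to 0.38) and Mir6240 by 0.20 (SE 0.078, 95% interval 0.03 to 0.36), both with overlapping groups. Mir5103 read 5.55, 5.33, 5.40 and 5.40 in the controls and 5.79, 5.66, 5.48 and 5.62 in F3, so that only replicate 3 of F3 lay within the control range. Mir684-1 differed by 0.59 (SE 0.245, 95% interval 0.05 to 1.12). Its values were 4.92, 5.50, 3.99 and 4.51 in the controls, 5.27, 4.96, 5.20 and 4.9996 in F2, and 5.39, 5.39, 5.01 and 5.48 in F3. The controls spread most, and without control replicate 3 its difference shrank to 0.34. Mir6976, a member only through its control mean of 4.73 (F2 4.51, F3 4.47), read 4.64, 4.57, 4.93 and 4.79 in the controls, 4.53, 4.71, 4.28 and 4.51 in F2, and 4.5004, 4.62, 4.34 and 4.43 in F3. Among lower members it differed by -0.26, Mir188 by -0.16 and Mir7042 by -0.20. Without control replicate 3 the difference of Mir7042 shrank to -0.091.

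**Figure D4:**
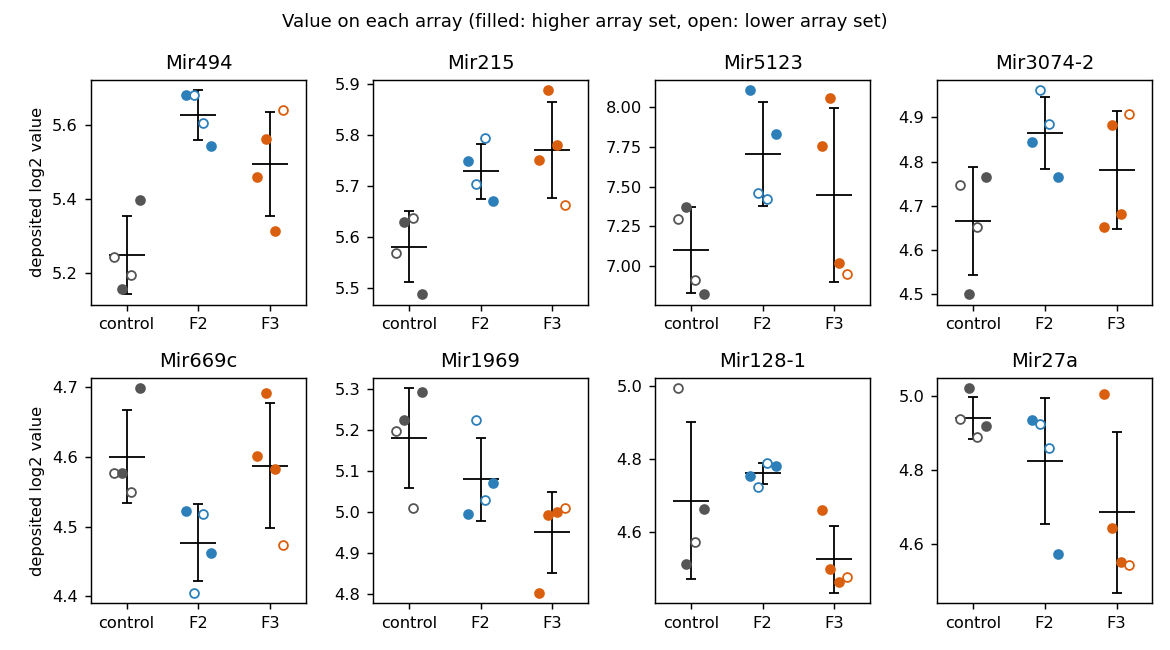
Deposited log2 value on each array (y axis) for 8 members in control, F2 and F3 liver (x axis), 4 arrays per group, with the mean and SD as a black bar. Filled points belong to the array set with more small nucleolar RNA and open points to the set with less. F2 lies above control without overlap for Mir494, Mir215, Mir5123 and Mir3074-2 and below it for Mir669c, while Mir1969 is lower in F3 and Mir128-1 is lower in F3 than in F2.

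Between F3 and F2, 0 members were higher without overlap, against 1.62% of all genes, and 1 was lower, against 0.838%. That member was Mir128-1, at 4.75, 4.72, 4.79 and 4.78 in F2 and 4.66, 4.4982, 4.46 and 4.48 in F3, a difference of -0.24 (SE 0.093, 95% interval -0.44 to -0.03). Its F3 mean of 4.52 lies under the threshold, so that it is a member only through the other groups, and the control arrays ran from 4.51 to 4.99. Mir5103 differed by 0.21 (SE 0.077, 95% interval 0.04 to 0.38), with F2 values of 5.37 to 5.56 and F3 values of 5.48 to 5.79. The next lowest p-values among higher members belonged to Mir1188 (0.17), Mir6240 (0.14), Mir669c (0.11) and Mir694 (0.23), and among lower members to Mir505 (-0.28), Mir5125 (-0.31), Mir494 (-0.13) and Mir1969 (-0.13). Without F3 replicate 3 the difference of Mir5125 shrank to -0.13 and that of Mir494 to -0.073. Without F3 replicate 2 that of Mir505 shrank to -0.16 and that of Mir694 to 0.15, and without F3 replicate 1 that of Mir1969 to -0.080.

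Among liver microRNAs, Mir122 varied more within groups than between them. Its values were 5.67, 6.66, 5.17 and 5.66 in the controls, 5.31, 7.48, 5.17 and 5.74 in F2, and 6.60, 5.24, 5.62 and 6.58 in F3. The highest value was a single F2 array, and the differences of 0.14 in F2 and 0.22 in F3 (SE 0.494) were smaller than their standard error. Mir1948 read 8.62, 7.33, 7.56 and 8.87 in the controls, 8.58, 8.36, 8.30 and 9.18 in F2, and 9.15, 9.15, 8.59 and 7.93 in F3. The means differed by 0.51 (SE 0.365, 95% interval -0.29 to 1.30) in F2 and 0.61 (SE 0.365, 95% interval -0.18 to 1.41) in F3, with overlapping groups. Mir194-2 stood at 8.14 ± 0.25 (SD, n = 4), 8.16 ± 0.066 and 8.09 ± 0.13 in control, F2 and F3. Mir455 and Mir30d differed by at most 0.11 in size, and Mir15a by 0.10 in F2 and 0.28 in F3. Over the 17 liver members the median difference was 0.01 in F2 and 0.04 in F3, and 1 and 2 members had an unadjusted p under 0.05 (0.919% and 2.93% of all genes).

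No let-7 member passed the test. Mirlet7d, the brightest, stood at 6.59 ± 0.36 (SD, n = 4) in controls, 6.58 ± 0.23 in F2 and 6.77 ± 0.19 in F3. Mirlet7a-1 differed by -0.10 in F2 and -0.01 in F3, Mirlet7b by -0.15 in each, and Mirlet7e by -0.17 and -0.14, with overlapping groups throughout. The median over the 4 was -0.13 in F2 and -0.07 in F3. Mirlet7b passed the selection rule only through the groups in which it was higher. Its differences, and in part this median, are therefore tied to the rule. Control replicate 3 held the highest control value of Mirlet7a-1, Mirlet7b and Mirlet7e. For Mirlet7e it was 5.01 against at most 4.74 on the other control arrays.

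Members known from metabolism showed differences of like size. Over the 13, the median was -0.04 in F2 and -0.03 in F3, with 0 and 2 members (Mir27a and Mir130a) under an unadjusted p of 0.05 (0.919% and 2.93% of all genes). Mir130a, known for its action on Pparg, differed by 0.20 in F3 (SE 0.091, 95% interval 0.0034 to 0.40). Mir483, which lies in Igf2, differed by -0.04 and -0.05, Mir181d by -0.03 and -0.06, and Mir212 by -0.08 and -0.10. Mir378a, which lies in Ppargc1b, differed by 0.02 in F2 and 0.17 in F3. Mir185 differed by 0.08 and -0.12, Mir375 by -0.19 and -0.08, and Mir370 by 0.05 and -0.01. The groups of each of these overlapped.

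The imprinted Dlk1-Dio3 region on chromosome 12 is expressed from the maternal chromosome for its microRNAs. Of 56 listed genes, 13 were members. With Mir1188, which is not on the list, members of the region formed 3 runs of neighbours, namely Mir337, Mir540, Mir665 and Mir432, then Mir341, Mir1188 and Mir370, then Mir758, Mir494, Mir679, Mir666 and Mir667. Over the 13 the median difference was -0.05 in F2 and -0.06 in F3, with 4 and 3 members above 0. In F2, Mir494 (0.38) and Mir679 (-0.26) were the highest and the lowest of the 13, within the same run of neighbours. Mir667 (7.53), the brightest of the region, differed by 0.01 and -0.01.

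The Mir297, Mir466, Mir467 and Mir669 families form a large repeat-rich cluster, most of it in an intron of Sfmbt2 on chromosome 2. The list took 80 genes by the start of their symbol, which let in Mir4660, a microRNA of another number that was not a member. Of the 80, 35 were members, 29 of them on chromosome 2 in RefSeq. Their median level was 7.23 and their highest 11.92 (Mir669e). The 7 read by a probe set on another chromosome, Mir669e among them, had a median of 10.20. The 28 read on the chromosome of their gene had a median of 6.93 and reached 9.89. With identical rows counted once the 35 gave 33 measurements. The median difference was -0.03 in F2 (8 of 33 above 0), 0.05 in F3 (23 of 33) and 0.08 between F3 and F2 (31 of 33), with 0 members under an unadjusted p of 0.05 in any of the 3. Their values also differed with the small nucleolar RNA level of the arrays, as given next.

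The 12 arrays fell into 2 sets by their mean level of 341 small nucleolar RNA genes, which guide the chemical modification of ribosomal RNA. The sets were cut at the widest gap: 7 arrays lay between 6.35 and 6.46 and 5 between 5.91 and 6.06. F3 had 3 of its 4 arrays in the higher set (all but replicate 4), controls had replicates 2 and 4 there, and F2 had replicates 1 and 4. No member is among the genes used for the cut, and the values below are a description without a test. Members whose sets did not overlap numbered 24 higher in the higher set, against 3.37% of all genes, and 3 lower (Mir24-2, Mir1932 and Mir3965), against 2.34%. The median difference between the sets was -0.012 over all members and -0.031 over all genes.

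Mir101c showed the largest difference between the sets and the largest spread of all members (SD 1.56 over 12 arrays). Its values in the controls were 3.59, 8.46, 4.42 and 7.43, in F2 6.08, 4.5028, 4.32 and 6.58, and in F3 6.59, 5.87, 7.11 and 3.96. Every array of the higher set read at least 5.87 and every array of the lower set at most 4.5028, a difference of 2.72. Between groups it differed by -0.60 in F2 and -0.09 in F3 (SE 1.027). Control replicates 1 and 2 were the lowest and the highest of the 12 arrays.

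The 3 genes of miR-680 gave like differences between the sets, though none was read by a probe set that carries its RefSeq chromosome. Mir680-3 had a mean of 7.9986 in the higher and 7.08 in the lower set, Mir680-1 7.29 and 6.48, and Mir680-2 7.9985 and 7.49, without overlap in each case. Mir1950 (7.63 and 6.67), Mir3472 (10.17 and 9.66) and Mir3471-1 (11.14 and 10.65) also separated. Of these, only Mir3472 was read by a probe set that carries the chromosome of its gene. Of the 19 members read on another chromosome all 19 were higher in the higher set, with a median difference of 0.17. Of the 223 on the same chromosome 94 were, with a median of -0.03. All 35 members of the Mir297, Mir466, Mir467 and Mir669 families (33 measurements) were higher in the higher set, with a median of 0.22. The sets did not overlap for 10 of them, against 3.37% of all genes. With the array set as a block in the fit, the median member difference was -0.018 in F2, -0.0051 in F3 and 0.017 between F3 and F2. No gene was called in that fit. Fits within each array set alone are given in the closing section. Beyond these fits, the part of the small nucleolar RNA level in the differences between groups was not tested.

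**Figure D5:**
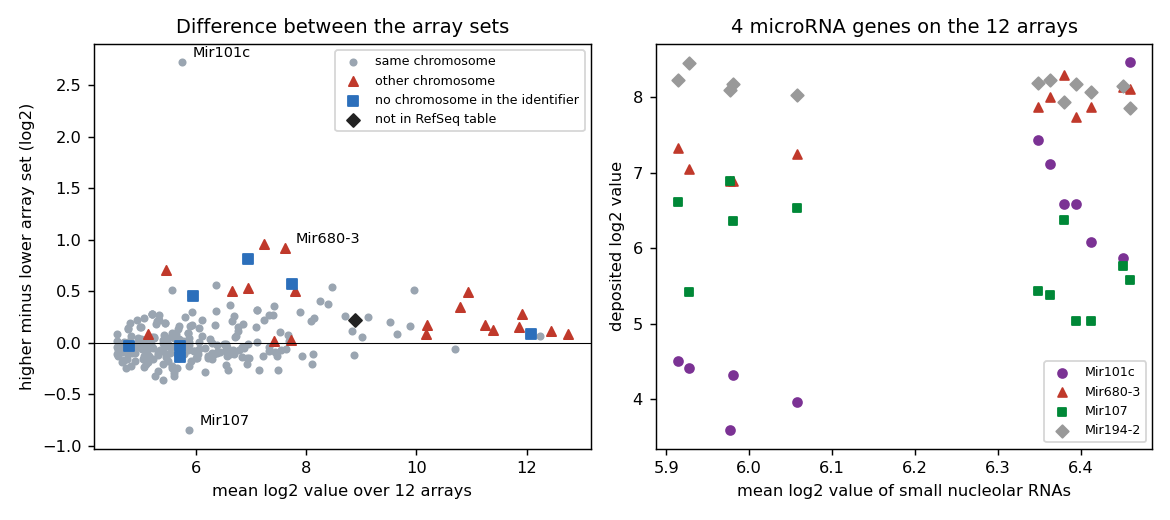
Left, difference in mean log2 value between the higher and the lower array set (y axis) against the mean over 12 arrays (x axis) for the 250 members, by whether the probe set identifier carries the chromosome of the RefSeq gene. Right, log2 value of 4 members on the 12 arrays (y axis) against the mean small nucleolar RNA level of the array (x axis): Mir101c and Mir680-3 are higher on the 7 arrays at the right, Mir107 tends to be lower there without separating, and Mir194-2 differs little.

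After Mir101c, the widest spread was that of Mir378c, Mir292b, Mir122 and Mir107. Mir378c read 3.69, 5.54, 6.11 and 5.57 in the controls, 6.90, 4.80, 5.77 and 5.58 in F2, and 4.37, 5.94, 6.36 and 4.87 in F3. Mir292b read 7.18, 6.34, 6.04 and 4.38 in the controls, 5.92, 6.07, 7.13 and 7.14 in F2, and 6.27, 6.75, 5.54 and 5.24 in F3. Mir107, an intronic microRNA known to lower insulin sensitivity, read 6.89, 5.58, 5.41 and 5.44 in the controls, 5.03, 6.61, 6.36 and 5.04 in F2, and 6.37, 5.76, 5.38 and 6.53 in F3. In each of the 3 the groups overlapped and single arrays of a group lay more than 1 log2 unit apart. For comparison, the median SD over 12 arrays was 0.17 for the members and 0.12 for all genes, and 228 members had an SD under 0.3.

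The genes that make and use microRNAs showed no called difference. Of 31 listed, 24 were tested, 1 (Lin28b) lay under the threshold, 5 shared their probe sets with other symbols and 1 had no usable row. The median difference was 0.01 in F2 and -0.03 in F3, with 0 genes under an unadjusted p of 0.05 in either. The lowest p-value in each belonged to Prkra, the Dicer partner known as PACT, at 6.00 ± 0.17 (SD, n = 4), 6.13 ± 0.10 and 6.20 ± 0.14 in control, F2 and F3. Its difference was 0.14 in F2 (SE 0.094) and 0.20 in F3 (SE 0.094). Drosha, which cuts the primary transcript, differed by 0.06 and 0.03, the tailing enzyme Tent2 by 0.08 and 0.04, and the effector Ago1 by -0.07 and -0.06. In F3 the next lowest p-values were those of the Argonaute partner Tnrc6c (-0.08), the target-directed decay factor Zswim8 (-0.06) and the exonuclease Xrn1 (0.12). Xrn1 and its nuclear relative Xrn2 were the 2 of the 24 tested genes whose array sets did not overlap, against 3.37% of all genes. Both were higher in the higher set (0.24 and 0.25).

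Genes known as Mir122 targets mostly lay below control in F3, without any passing the test. Of 18 tested, 3 lay above control in F3, with a median of -0.11 against -0.010 over all genes, and 5 had an unadjusted p under 0.05, against 2.93% of all genes. In 5 genes the F3 values were all lower than control, against 0.903% of all genes. They were the glycolytic enzymes Aldoa (-0.19) and Pkm (-0.12), the kinase Bckdk (-0.23), which restrains branched-chain amino acid breakdown, Gpx7 (-0.14) and Tmem50b (-0.25). The lowest F3 difference of the list, -0.52, belonged to another gene, whose groups overlapped. In F2 the median was -0.04 and 1 gene, Gpx7, was lower without overlap (-0.16), against 0.401% of all genes. The list was described after earlier results of these data were known, and Mir122 itself differed by 0.22 (SE 0.494) in F3. Of 14 genes known as Mir33 targets, 8 lay above control in F2 and 4 in F3. The median was 0.04 in F2 and -0.06 in F3, and no gene of the list was free of overlap with control in either. The highest differences were those of Pck1 in F2 (0.28) and Atp8b1 in F3 (0.30), and the lowest were -0.11 and -0.12.

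Of 157 members on their RefSeq chromosome with a hairpin sequence, 79 lay inside the span of another gene on the same strand, and for 61 of these the host was tested (60 hosts, as Mir449a and Mir449c share Cdc20b). The difference of the member had the sign of its host's for 37 of 61 in F2 and for 32 of 61 in F3, in the same arrays. Mir5123 and its host B4galt1, a galactosyltransferase, differed by 0.60 and 0.13 in F2. Mir128-1 and R3hdm1 differed by -0.24 and -0.10 between F3 and F2. Mir6976 and Srf, a transcription factor of the serum response, differed by -0.26 and -0.14 in F3. Mir292b and Nlrp12 differed by 0.58 and 0.16 in F2. Mir107 and the pantothenate kinase gene Pank1 went apart in F3 (0.18 and -0.10), and so did Mir188 and the chloride transporter Clcn5 (-0.16 and 0.03) and Mir7042 and Tatdn2 (-0.20 and 0.05). Mir128-1, Mir6976 and Mir7042 passed the selection rule only through the groups in which they were higher. Their lower values are tied to that rule, and all of them are counted among the 61. Mir138-2 and the nucleoporin Nup93 differed by -0.17 and -0.02 in F2, Mir5125 and the splicing gene Srrm2 by -0.31 and 0.01 between F3 and F2, and Mir1954 and endoglin (Eng) by 0.05 and -0.07 in F3.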

How the data were processed

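The deposited values are log2 expression per probe set and array. Per the submitters' processing notes the software was Affymetrix Expression Console; per the labels' protocols, total RNA was extracted with Trizol. Version, background correction, normalization, summarization and build: not given in the sources used here. Symbols came from the platform annotation and were updated through RefSeq (GRCm38.p6), and 2 members are no microRNA there: Mir143hg, a host transcript, and Mir446q. A further 537 probe sets with several symbols include a microRNA and were left out. Group means were fitted in R 4.3.3 by lmFit and eBayes of limma 3.58.1 (12 arrays, 9 residual degrees of freedom, no covariate), with adjusted p under 0.05 over 18725 genes. The script was tested on simulated data. The number of arrays limits the precision.

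Members and lists were chosen with earlier results of these data known. Named were the 10 brightest members, up to 5 per direction and comparison by non-overlap then lowest p, the 5 of largest SD, up to 8 per list, those beside the threshold, pathway genes of lowest p, hosts and runs of neighbours. Mir703, Mir130a, Mir680-1, Mir680-2, Mir680-3, Mir1950, Mir3472, Mir24-2, Mir1932, Mir3965 and the named targets were chosen after their values were seen. Alternatives covered normalization, filters, probe set choice, variance model, array weights, blocks, array sets and each array left out.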

Additional observations from a re-analysis of the deposited data

Results flagged for a closer look

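In 5 of 108 groups of 4 arrays examined for the named members, a single array stood apart from the other 3 by more than Dixon's critical value, and chance alone flags about 1 in 20. For Mir107, control replicate 1 was the highest control array at 6.89, with the next at 5.58. For Mir1969, F3 replicate 1 was the lowest of F3 at 4.80, with the next at 4.99, and without it the F3 difference was -0.18 in place of -0.23. For Mir466f-1, control replicate 1 was the lowest control array at 11.21, with the next at 11.47. For Mir669e, F3 replicate 4 was the lowest of F3 at 11.73, with the next at 12.03, and it is the only F3 array of the lower small nucleolar RNA set. For Mirlet7e, control replicate 3 was the highest control array at 5.01, with the next at 4.74.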

How the results depend on the processing

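No member was called at an adjusted p under 0.05 under any alternative run; the smallest adjusted p of a member over all alternatives was 0.932 in F2, 0.667 in F3 and 0.656 between F3 and F2. Members under an unadjusted p of 0.05 ranged from 2 to 20 in F2 and from 2 to 33 in F3. Without control replicate 2 they numbered 14 (3.06% of all genes) and 33 (6.46%), and with array weights 20 (5.16%) and 20 (5.18%). The 2 in F2 were seen without F2 replicate 3 (0.849%) and with a stricter filter (0.802%). The 2 in F3 were seen with that filter (3.44%), which kept 118 members. Leaving out 1 array at a time gave medians of -0.043 to 0.015 in F2, -0.025 to 0.041 in F3 and -0.0031 to 0.041 between F3 and F2. In the lower array set alone, where F3 has 1 array that is assumed to vary like the other groups, the median was -0.11 for F3 minus control and -0.078 for F3 minus F2. In the higher array set alone, where F3 has 3 arrays, these medians had the opposite sign, at 0.059 and 0.052. Of 697 values of named differences, 695 kept their sign: Mir679 in F2 was 0.0008 in the higher array set alone, and Mir694 between F3 and F2 was -0.014 in the lower set alone. The mean member level of an array shifted by at most 0.038 with quantile normalization (F2 replicate 2) and 0.064 with median centring (F3 replicate 4). With the replicate number as a block the medians were -0.018 in F2 and 0.0071 in F3 and 0 members were called; 3 of 12 same-numbered pairs had a correlation of deviations over 0.1 and 0 arrays correlated best with their own number, so the numbers were not taken to pair the arrays. Counting a symbol and its mmu-mir alias as 1, chosen after seeing the data, gave 425 members and 0 calls, and members on their RefSeq chromosome only, also chosen then, gave medians of -0.016 and 0.0027. Dim members near the threshold limit what can be seen, since 43.0% of negative control probe sets also lay above it.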
